A study of Mus musculus with 15 samples.

Results

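The interferon response genes described here are 36 genes that mouse cells transcribe after an interferon signal. They were chosen by name from general knowledge of the response, with earlier results of these data known. On the arrays 34 of the 36 had at least 1 probe set assigned to that symbol alone, out of 18193 genes measured in this way. Isg15 was covered only by a probe set that the annotation gives to 2 genes, so it was not used, and Ifi44 was not analysed here. The 34 genes were covered by 52 probe sets, and each gene was represented by the probe set with its highest mean log2 signal.

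Liver RNA was hybridised to Affymetrix mouse 430 2.0 arrays, 1 array per mouse, with 5 male mice in each of 3 groups. C57BL/6J mice on chow given distilled water by gavage were the normal group, and KKAy mice, a diabetic strain that carries the yellow allele of agouti, on a high-fat diet with distilled water were the model group. The third group was KKAy mice on the same diet given the herbal extract Xiao-Ke-An (XKA) at 1.5 g/kg once a day (XKA-H). In all 3 groups the gavage ran for 32 days from 10 weeks of age. KKAy and C57BL/6J mice came from different suppliers and ate different diets, so strain, diet and supplier cannot be told apart. All signals below are probe-set intensities scaled to a median of 1000 on each array, and changes are differences of mean log2 scaled signal tested with limma. Hepatocyte markers were bright in every group, with a mean log2 scaled signal of Alb, serum albumin, of 18.81 in C57BL/6J, 19.32 in KKAy and 19.06 in XKA-H liver. A liver sample mixes many cell types, so fewer cells of a type and less RNA per cell cannot be told apart in any value here.

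Interferons are secreted proteins that bind receptors on the same or neighbouring cells and, through JAK kinases, activate transcription factors of the STAT and IRF families. Type I interferons act mainly through the factor made of STAT2, IRF9 and a further STAT, which reads the interferon-stimulated response element, whereas interferon gamma acts mainly through a gamma-activated site. The genes switched on encode sensors of viral RNA, enzymes and membrane proteins that block viral growth, GTPases that attack the vacuoles of intracellular parasites, the machinery that loads peptides onto MHC class I, and chemokines that draw T cells. In liver, hepatocytes as well as Kupffer and endothelial cells can respond.

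Promoter stretches of 5 members are shown with each match to the core of the interferon-stimulated response element, GAAANNGAAA or its reverse complement TTTCNNTTTC, in capitals. They are examples picked by hand from the members with a match. Beside them are the 275 bases shared by the promoter windows of Tap1 and Psmb9, genes that are read in opposite directions from a common promoter. These bases reach past the start of both genes. They are shown because both genes passed between the strains and the stretch holds no match. The sequences are those of RefSeq on GRCm38.p6, read 5′ to 3′ along the gene, from chr19:34640739-34640898 on the plus strand for Ifit1, chr8:71537463-71537642 on the minus strand for Bst2, chr12:26456443-26456622 on the minus strand for Rsad2, chr11:58199476-58199585 on the plus strand for Igtp, chr5:120907496-120907595 on the minus strand for Oas1a and chr17:34187306-34187580 on the plus strand for Tap1.
Ifit1: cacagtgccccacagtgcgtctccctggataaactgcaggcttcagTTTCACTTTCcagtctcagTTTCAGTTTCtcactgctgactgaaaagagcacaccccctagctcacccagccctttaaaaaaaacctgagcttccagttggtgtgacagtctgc
Bst2: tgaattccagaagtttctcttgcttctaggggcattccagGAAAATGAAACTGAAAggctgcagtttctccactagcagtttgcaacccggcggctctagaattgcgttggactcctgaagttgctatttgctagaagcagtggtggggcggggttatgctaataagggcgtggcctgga
Rsad2: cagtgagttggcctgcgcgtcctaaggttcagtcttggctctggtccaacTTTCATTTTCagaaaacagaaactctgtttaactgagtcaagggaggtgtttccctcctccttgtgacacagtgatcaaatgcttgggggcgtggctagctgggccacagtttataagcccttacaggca
Igtp: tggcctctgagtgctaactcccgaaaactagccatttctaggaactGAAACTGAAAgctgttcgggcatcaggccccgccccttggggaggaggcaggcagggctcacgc
Oas1a: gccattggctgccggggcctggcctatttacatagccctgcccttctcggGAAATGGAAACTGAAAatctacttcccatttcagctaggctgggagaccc
Tap1 and Psmb9: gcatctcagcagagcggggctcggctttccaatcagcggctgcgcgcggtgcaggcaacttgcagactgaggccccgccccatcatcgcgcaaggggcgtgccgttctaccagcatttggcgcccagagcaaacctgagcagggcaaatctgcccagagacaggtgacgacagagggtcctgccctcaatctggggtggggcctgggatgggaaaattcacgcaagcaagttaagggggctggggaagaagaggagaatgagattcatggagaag

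In the 300-base windows of RefSeq promoters, from 250 bases before to 50 after the start of a gene, 15 of 29 members with an entry held the response element core on either strand (51.7%), against 1079 of 27025 genes (3.99%). They were Ifih1, Ddx58, Stat2, Ifit1, Ifit3, Isg15, Oas1a, Rsad2, Bst2, Ifitm3, Igtp, Irgm1, Gbp2, Gbp3 and Cxcl10. The core of the gamma-activated site, TTCNNNGAA, which reads the same on both strands, was found in 8 of 29 members (27.6%) against 9.55% of genes, namely Irf1, Ifit2, Oas1a, Bst2, Ifitm3, Ifi35, Igtp and Psmb8. In Bst2 the match starts 136 bases before the gene and overlaps the response element core. A match is a string of letters and not evidence of binding, and the lack of a match does not show that an element is absent. Mx1, Mx2, Oas2, Usp18, Parp14, Iigp1 and Dhx58 had no promoter entry and were not searched, so nothing is known here of their elements.

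Before the groups are compared, KKAy replicates 3 and 4 have to be described, because they stood apart from the other KKAy mice in nearly all members. They were the 2 highest of the 5 KKAy arrays for 33 of 34 members (97.1%), against 3951 of 18193 genes (21.7%). Cxcl9 was the exception, with replicates 4 and 1 highest. The lower of these 2 arrays exceeded the highest of the other 3 by more than 1 log2 unit for 17 members (50%), against 178 of all genes (0.978%). Replicate 3 was highest for 22 members and replicate 4 for 12, and replicate 5 was lowest for 29. Averaged over the 34 members, the log2 deviation from the C57BL/6J mean was 0.37, 0.22, 1.77, 1.61 and -0.34 in KKAy replicates 1 to 5. It was 0.08, 0.75, 0.75, -0.02 and -0.18 in XKA-H replicates 1 to 5, and -0.17 to 0.21 in the C57BL/6J arrays. XKA-H replicates 2 and 3 were the 2 highest of their group for 24 members (70.6%), against 24.6% of all genes.

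**Figure D1:**
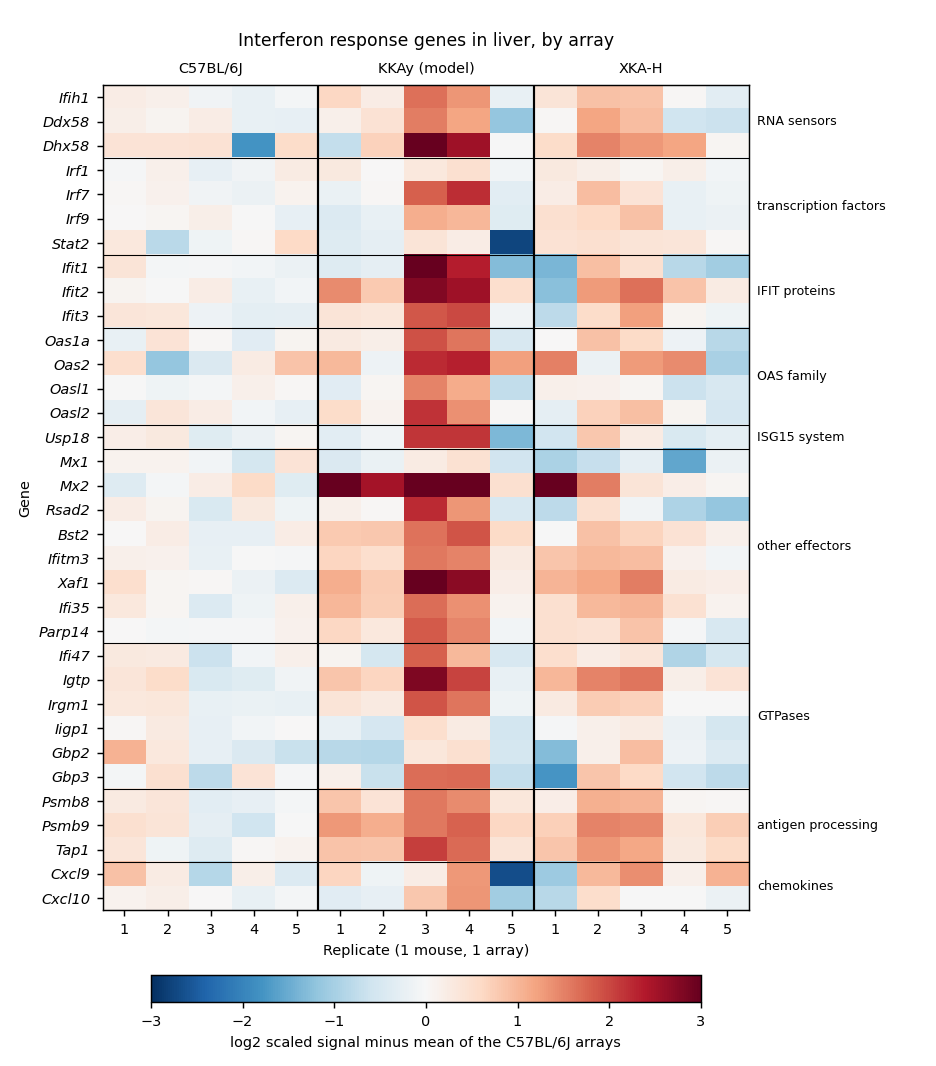
Log2 scaled signal of the 34 measured interferon response genes (rows, grouped by role) in the 15 liver arrays (columns, 5 per group), minus the mean of the 5 C57BL/6J arrays, with colours ending at 3 log2 units in either direction. KKAy replicates 3 and 4 are the 2 highest KKAy arrays in 33 of 34 rows.

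The array controls were read beside this. In KKAy replicates 1 to 5 the ratio of the 3′ to the 5′ probe set was 2.75, 2.74, 2.58, 2.48 and 2.73 for Actb, against 2.48 to 3.42 over the 15 arrays. For Gapdh it was 0.946 in replicate 3 and 0.889 in replicate 4, the 2 highest of the KKAy group, against at most 1.18 over the 15 arrays. Replicates 3 and 4 thus had the 2 lowest Actb and the 2 highest Gapdh ratios of their group, replicate 4 the lowest Actb ratio of all, and the part of these ratios in the members' signals was not tested. Averaged over all 18193 genes, the deviation from the C57BL/6J mean was 0.145, 0.151, 0.183, 0.181 and 0.038 in KKAy replicates 1 to 5. Replicates 3 and 4 were thus the highest and replicate 5 the lowest over all genes too. XKA-H replicates 2 and 3, at 0.139 and 0.131, were likewise the highest of their group. No 2 of the arrays were copies, since the highest correlation between 2 arrays was 0.943. Because many of the values that follow move without the 2 arrays, the change of each member between the strains is also given without them, an alternative chosen after seeing the data. The 2 arrays were picked as the highest, so leaving them out lowers the KKAy mean of nearly every member by the choice itself.

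Between KKAy model and C57BL/6J liver, 9 of 34 interferon response genes rose and 0 fell at an adjusted p under 0.05, where 10.5% of all genes rose and 2.36% fell. The 9 were Ifit2, Mx2, Bst2, Ifitm3, Xaf1, Ifi35, Psmb8, Psmb9 and Tap1. The median log2 change of the members was 0.71 against 0.15 over all genes, and 29 of 34 lay above 0 against 62.8% of all genes. For 5 members, Ifit2, Bst2, Ifitm3, Psmb9 and Tap1, every KKAy mouse was above every C57BL/6J mouse, against 8.17% of all genes. Counted by probe set, 10 of the 52 were higher at an adjusted p under 0.05 against 6.07% of 45037 probe sets. A probe set of Iigp1 other than the one used was lower, at -0.90 (adjusted p = 0.00202 from limma over all probe sets). The share of all probe sets called lower was not counted. Without KKAy replicates 3 and 4, Bst2 and Psmb9 passed and the other 7 of the 9 did not, where 4.24% of all genes were called higher. The median change of the members was then 0.034 against 0.12 over all genes. Of the members 17 lay above 0, against 60.4% of all genes, and 17 below, 12 of these turned from above 0. With 1 array left out at a time the count of members called was 5 without KKAy replicate 3, 5 without KKAy replicate 4 and 14 without KKAy replicate 5. Calls over all genes moved too. With all arrays 1906 genes were called higher and 430 lower. With 1 array left out the count in both directions ran from 1648 without C57BL/6J replicate 3 to 2773 without KKAy replicate 5. Without KKAy replicate 5, the lowest for 29 members, the median change was 1.01. Mx2, Bst2, Ifi35, Psmb9 and Tap1 passed whichever single array was left out. Ifitm3, Xaf1, Psmb8 and Ifit2 each did not pass without KKAy replicate 3 or without KKAy replicate 4, nor did Ifitm3, Psmb8 and Ifit2 without C57BL/6J replicate 3, Psmb8 and Ifit2 without C57BL/6J replicate 4, and Ifit2 without KKAy replicate 1 or C57BL/6J replicate 2 or 5.

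All 3 members that prepare or carry peptides for MHC class I passed between the strains with all arrays, and Psmb9 passed without KKAy replicates 3 and 4 too. Psmb9, a catalytic subunit that replaces its standard counterpart in the immunoproteasome, had scaled signals of 10537, 9874, 6227, 4934 and 7452 in C57BL/6J replicates 1 to 5, 18640, 15956, 22632, 25385 and 11612 in KKAy and 12410, 21023, 20343, 9520 and 12531 in XKA-H replicates 1 to 5. All 5 KKAy mice were above the highest C57BL/6J mouse. The log2 change between KKAy and C57BL/6J liver was 1.28 (adjusted p = 0.00172, standard error 0.25), and without KKAy replicates 3 and 4 it was 1.01 (adjusted p = 0.0356, standard error 0.27). Psmb8, the neighbouring immunoproteasome subunit, measured 12966, 13880, 8705, 9099 and 10436 in C57BL/6J, 19269, 14297, 32214, 28965 and 13740 in KKAy and 12459, 22546, 21953, 11308 and 11073 in XKA-H mice. Of the KKAy mice only replicate 5, at 13740, lay below the highest C57BL/6J value. Its log2 change was 0.91 (adjusted p = 0.0211, standard error 0.25), against 0.53 (adjusted p = 0.252, standard error 0.24) without the 2 arrays. Tap1, which carries peptides into the endoplasmic reticulum, measured 5964, 4216, 3560, 4753 and 4987 in C57BL/6J, 8348, 8286, 19542, 15030 and 6062 in KKAy and 8246, 11537, 10420, 5628 and 6875 in XKA-H mice. The KKAy and C57BL/6J mice did not overlap, although KKAy replicate 5 lay close to the highest C57BL/6J mouse. The log2 change of Tap1 was 1.17 (adjusted p = 0.00595, standard error 0.27), and 0.69 (adjusted p = 0.0888, standard error 0.23) without the 2 arrays.

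Among the antiviral effectors Bst2, or tetherin, which holds budding virus particles at the cell surface, had scaled signals of 40430, 47070, 34008, 33934 and 47101 in C57BL/6J, 68917, 69849, 124885, 147988 and 59657 in KKAy and 39565, 73438, 63811, 54020 and 44804 in XKA-H replicates 1 to 5. Every KKAy mouse was above every C57BL/6J mouse, and KKAy replicates 3 and 4 were far above the other 3. The log2 change from C57BL/6J to KKAy liver was 1.14 (adjusted p = 0.00201, standard error 0.23), and 0.72 (adjusted p = 0.0272, standard error 0.19) without those 2 mice. Ifitm3, a membrane protein that blocks the fusion of virus in endosomes, measured 200307, 198797, 154248, 178542 and 178287 in C57BL/6J, 282901, 258822, 540646, 505828 and 218659 in KKAy and 320983, 356234, 345650, 196892 and 171275 in XKA-H mice. The KKAy and C57BL/6J ranges did not overlap, and the log2 change was 0.90 (adjusted p = 0.0233, standard error 0.25), or 0.48 (adjusted p = 0.279, standard error 0.23) without the 2 arrays. Ifi35, which forms a complex with the interferon-induced protein NMI, measured 60430, 51196, 36826, 44930 and 54752 in C57BL/6J, 98203, 81770, 155381, 126535 and 52777 in KKAy and 68036, 96121, 98460, 66976 and 53009 in XKA-H mice. Of the KKAy mice only replicate 5 lay inside the C57BL/6J range, and the log2 change of Ifi35 was 0.98 (adjusted p = 0.00893, standard error 0.24) with all arrays and 0.62 (adjusted p = 0.130, standard error 0.23) without the 2.

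Xaf1, a binding partner and antagonist of the apoptosis inhibitor XIAP, measured 5451, 4016, 3984, 3413 and 2902 in C57BL/6J, 8296, 6515, 30603, 25259 and 4418 in KKAy and 7864, 8613, 11227, 4577 and 4413 in XKA-H mice. KKAy replicate 5 lay inside the C57BL/6J range. The log2 change of 1.55 (adjusted p = 0.0183, standard error 0.42) became 0.68 (adjusted p = 0.215, standard error 0.30) without KKAy replicates 3 and 4. Mx2, a dynamin-like GTPase, had the widest difference of the 34 genes, with scaled signals of 183, 230, 277, 356 and 187 in C57BL/6J and 2135, 1348, 8633, 8898 and 331 in KKAy mice. The C57BL/6J signals were all below the array median of 1000 and were not tested against background, so the size of this difference is not settled, and KKAy replicate 5 lay inside the C57BL/6J range. Its log2 change was 3.31 (adjusted p = 0.00643, standard error 0.76), and 2.04 (adjusted p = 0.120, standard error 0.73) without the 2 arrays. Mx1, of which many inbred mouse strains carry a defective allele, measured 788 to 1488 in C57BL/6J and 755 to 1548 in KKAy mice, overlapping ranges near the array median (log2 change -0.11, adjusted p = 0.896 from limma, and -0.41 without the 2 arrays).

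Rsad2, or viperin, an enzyme that makes a chain-ending nucleotide against viral polymerases, measured 12611, 11432, 7921, 13220 and 9910 in C57BL/6J and 12055, 11092, 50991, 27020 and 7711 in KKAy mice. KKAy replicates 1, 2 and 5 lay within or just below the C57BL/6J range, from 7711 to 12055, and replicates 3 and 4 were 50991 and 27020. The log2 change of 0.65 (adjusted p = 0.331, standard error 0.39) did not pass, and was -0.10 without those 2. Parp14, a mono-ADP-ribosyltransferase, was nearly constant in C57BL/6J mice, at 7231 to 8187, and ran from 7109 to 26707 in KKAy mice. Its log2 change of 0.83 (adjusted p = 0.0660, standard error 0.29) did not pass, and was 0.29 without the 2 arrays.

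**Figure D2:**
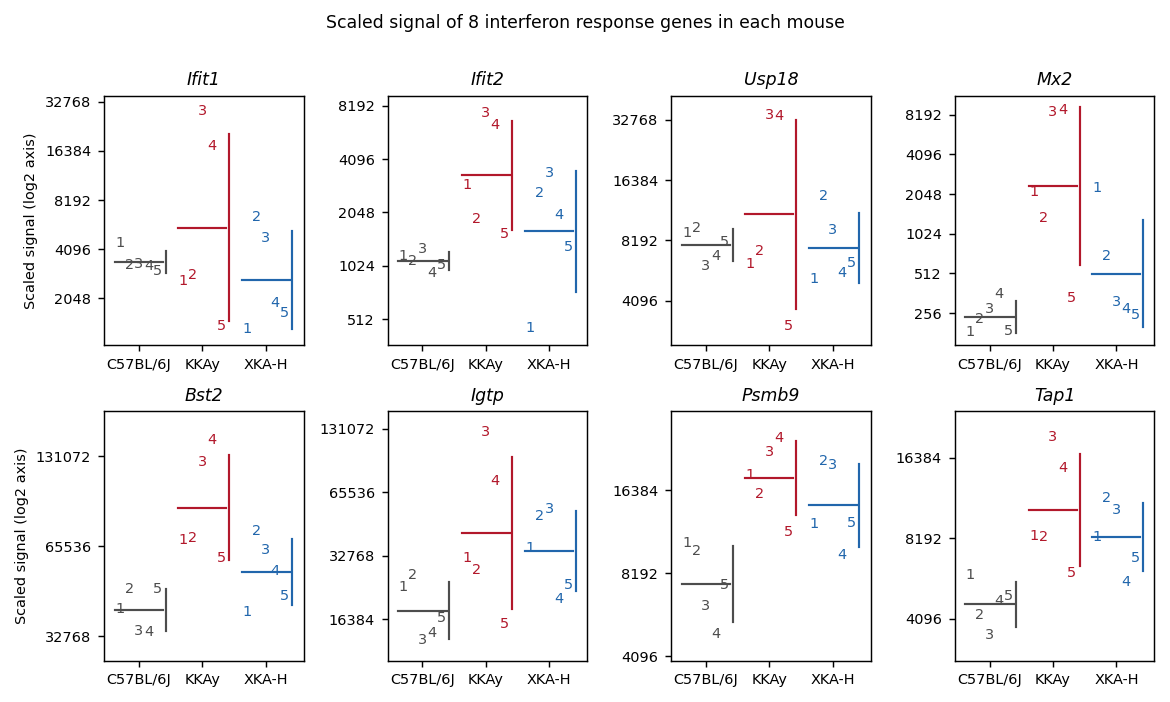
Scaled signal (log2 axis, array median 1000) of 8 interferon response genes in each mouse, with digits giving the replicate number, horizontal lines the mean and vertical lines the SD of the log2 signals in each group (n = 5). For Bst2, Ifit2, Psmb9 and Tap1 every KKAy mouse is above every C57BL/6J mouse, and for Ifit1 and Usp18 only KKAy replicates 3 and 4 are.

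The IFIT proteins bind foreign RNA, and Ifit1 recognises RNA whose cap lacks the methyl marks of the host. Ifit1 measured 4467, 3267, 3319, 3229 and 3011 in C57BL/6J, 2626, 2858, 28672, 17616 and 1387 in KKAy and 1320, 6429, 4781, 1924 and 1669 in XKA-H replicates 1 to 5. KKAy replicates 1, 2 and 5 were below every C57BL/6J mouse, while replicates 3 and 4 were several times above them. The log2 change between KKAy and C57BL/6J liver was 0.70 (adjusted p = 0.556, standard error 0.64), and -0.65 (adjusted p = 0.459, standard error 0.43) without replicates 3 and 4. Ifit2 measured 1164, 1092, 1273, 935 and 1039 in C57BL/6J, 2915, 1873, 7480, 6401 and 1556 in KKAy and 457, 2641, 3414, 1968 and 1304 in XKA-H mice. Every KKAy mouse was above every C57BL/6J mouse, with a log2 change of 1.60 (adjusted p = 0.0319, standard error 0.48), or 0.90 (adjusted p = 0.342, standard error 0.49) without the 2 arrays. Ifit3, a partner of Ifit1, measured 3658 to 5730 in C57BL/6J mice and 5810, 5612, 16294, 17552 and 4154 in KKAy mice. Its groups overlapped and its log2 change of 0.89 (adjusted p = 0.141, standard error 0.38) did not pass, and was 0.20 without the 2 arrays.

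The RNA sensors did not pass between the strains. Ifih1, or MDA5, a sensor of long double-stranded RNA, measured 14146 to 19202 in C57BL/6J mice and 25368, 19252, 51330, 40791 and 14068 in KKAy mice, a log2 change of 0.72 (adjusted p = 0.108, standard error 0.28) that was 0.21 without KKAy replicates 3 and 4. Ddx58, or RIG-I, which senses the uncapped ends of viral RNA, ran from 6415 to 8870 in C57BL/6J and from 3425 to 22147 in KKAy mice, with KKAy replicate 5 below the lowest C57BL/6J mouse. Its log2 change was 0.43 (adjusted p = 0.573, standard error 0.40), or -0.20 without the 2 arrays. Dhx58, or LGP2, which lacks the signalling domains of the other sensors, ran from 341 to 1743 in C57BL/6J and from 727 to 9927 in KKAy mice, a log2 change of 1.11 (adjusted p = 0.270, standard error 0.61), or -0.01 without them.

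None of the 4 measured transcription factors passed either. Irf7, which drives the transcription of interferon genes and is itself induced, measured 6901 to 8455 in C57BL/6J mice and 6746, 7924, 27122, 36341 and 6268 in KKAy mice. Only KKAy replicates 3 and 4 were above the C57BL/6J range, and the log2 change of 0.71 (adjusted p = 0.272, standard error 0.39) turned to -0.16 without them. Irf9, the DNA-reading part of the type I factor, ran from 4978 to 6656 in C57BL/6J and from 4454 to 12520 in KKAy mice, and its log2 change of 0.22 (adjusted p = 0.701 from limma) turned to -0.33 without the 2 arrays. Irf1, a target of interferon gamma, varied little, at 11908 to 16626 in C57BL/6J, 13378 to 19652 in KKAy and 13262 to 17321 in XKA-H mice, with a log2 change of 0.21 between the strains, or 0.08 without the 2. Stat2 measured 837 to 2209 in C57BL/6J and 217 to 1919 in KKAy mice, where replicate 5 at 217 was far below the next mouse at 1121, and its log2 change was -0.56 (adjusted p = 0.496, standard error 0.45), or -1.13 without KKAy replicates 3 and 4.

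The OAS family makes oligoadenylates that switch on RNase L, and none of its 4 members passed. Oas1a measured 4428 to 7468 in C57BL/6J mice and 6719, 6373, 21199, 16904 and 4024 in KKAy mice, with 3 of the 5 KKAy mice below the highest C57BL/6J mouse and a log2 change of 0.70, or -0.01 without KKAy replicates 3 and 4. Oas2 ran from 440 to 1763 in C57BL/6J and from 887 to 4940 in KKAy mice, with a log2 change of 1.32 (adjusted p = 0.119, standard error 0.53), or 0.68 without them. Oasl1, which restrains the translation of Irf7, ran from 3410 to 4149 and from 2215 to 10428 in the same groups, and Oasl2 from 795 to 1245 and from 984 to 4357. The log2 changes of Oasl1 and Oasl2 were 0.31 and 0.85, and -0.34 and 0.23 without the 2 arrays. Usp18, which strips ISG15 from proteins and damps the type I receptor, measured 8941, 9484, 6091, 6873 and 8057 in C57BL/6J and 6253, 7245, 34614, 34233 and 3072 in KKAy mice. KKAy replicates 3 and 4 were more than 2 log2 units above the other 3 KKAy mice, and replicate 5 was below every C57BL/6J mouse. The log2 change of 0.51 (adjusted p = 0.590, standard error 0.50) became -0.59 without replicates 3 and 4.

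The GTPases that interferon gamma induces did not pass between the strains, and KKAy replicates 3 and 4 were the 2 highest KKAy arrays for all 6. Igtp, which helps to dismantle parasite vacuoles, measured 23326, 26533, 13028, 14052 and 16689 in C57BL/6J, 31900, 28075, 126467, 73749 and 15503 in KKAy and 35733, 50664, 54738, 20432 and 23876 in XKA-H mice. Its log2 change was 1.22 (adjusted p = 0.0632, standard error 0.42) between KKAy and C57BL/6J liver, or 0.42 without KKAy replicates 3 and 4. Irgm1, a regulator of the same family, ran from 13391 to 19966 in C57BL/6J and from 14416 to 58094 in KKAy mice, with a log2 change of 0.80 (adjusted p = 0.0912, standard error 0.30), or 0.18 without them. Ifi47 ran from 8939 to 17119 and from 9724 to 49012, with a log2 change of 0.37 that turned to -0.31 without them. Iigp1, an effector of the family, was 204306 to 293821 in C57BL/6J and 164725 to 340824 in KKAy mice, with a log2 change of -0.11 (adjusted p = 0.800, standard error 0.20), or -0.42 without the 2 arrays. Another probe set of Iigp1 changed by -0.90 on the log2 scale (adjusted p = 0.00202 from limma over all probe sets). Gbp2 and Gbp3, guanylate-binding proteins, had log2 changes of -0.28 and 0.43, and without the 2 arrays Gbp2 was at -0.74 and Gbp3 turned to -0.41. Gbp2 ran from 1302 to 4268 in C57BL/6J and from 1146 to 2904 in KKAy mice, and Gbp3 from 2128 to 5108 and from 2235 to 11877.

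The chemokines Cxcl9 and Cxcl10, which both bind the receptor CXCR3 on T cells, had overlapping groups and did not pass between the strains. Cxcl9 measured 10812, 6952, 3234, 6628 and 4405 in C57BL/6J and 9271, 5425, 6868, 14571 and 929 in KKAy mice, where replicate 5 was lowest by a wide margin. Its log2 change was -0.12 (adjusted p = 0.930, standard error 0.57), or -0.71 without KKAy replicates 3 and 4. Cxcl10 ran from 1592 to 2093 in C57BL/6J and from 899 to 4653 in KKAy mice, with a log2 change of 0.10 (adjusted p = 0.906, standard error 0.36) that turned to -0.54 without them.

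Between XKA-H and KKAy model liver, 0 of 34 members passed in either direction at an adjusted p under 0.05, where 0.066% of all genes rose and 0.11% fell. The lowest adjusted p of a member was 0.281 from limma. At an unadjusted p under 0.05 there were 4 lower members, Ifit2, Mx2, Rsad2 and Bst2, against 5.82% of all genes, and 0 higher members against 2.76%. In no member was every XKA-H mouse below every KKAy mouse, against 1.01% of all genes. The median log2 change of the members was -0.45 against -0.06 over all genes, and 29 of 34 lay below 0, against 10617 of 18193 genes. Without KKAy replicates 3 and 4 that median was 0.14 against -0.01 over all genes. There 22 members lay above 0, against 48.2% of all genes, with 17 of them turned from below 0, and 12 members lay below. Of the members 0 were called, against 12 of 18193 genes. Those 2 mice were picked as the highest for nearly all members, so the direction of this shift was set by the choice. Without KKAy replicate 5, the lowest for 29 members, the median was -0.67. The comparison of XKA-H with KKAy liver shares the KKAy arrays with the comparison of the strains, so its signs are not independent of those above.

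Bst2 had the lowest adjusted p of the members in XKA-treated mice. From a mean of 94259 ± 39560 in KKAy liver (mean ± SD, n = 5) it was 55128 ± 13790 in XKA-H liver, a log2 change of -0.71 (adjusted p = 0.281, standard error 0.23) by limma. XKA-H replicate 2, at 73438, was above and replicate 3, at 63811, among KKAy replicates 1, 2 and 5, and the change was -0.30 without KKAy replicates 3 and 4. Rsad2 measured 6332, 15071, 10135, 5691 and 4840 in XKA-H mice, and its log2 change was -1.15 (adjusted p = 0.347, standard error 0.39), or -0.40 without those 2. Mx2 measured 2293, 693, 312, 273 and 249 in XKA-H mice, with replicate 1 above KKAy replicate 1, and its log2 change was -2.22 (adjusted p = 0.352, standard error 0.76), or -0.96 without the 2 arrays. The log2 change of Ifit2 was -1.05 (adjusted p = 0.556, standard error 0.48), or -0.35 without them, and XKA-H replicate 1 at 457 was below every other mouse of the series. For Ifit1 the log2 change of -1.07 became 0.28 without KKAy replicates 3 and 4, and for Usp18 -0.56 became 0.53.

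For the other members the log2 change between XKA-H and KKAy liver ran from -0.76 for Gbp3 to 0.90 for Stat2. The 5 members above 0 were Stat2, Cxcl9, Gbp2, Irf9 and Iigp1. Stat2 measured 1503 to 2036 in XKA-H mice, the narrowest spread of the 3 groups, and its log2 change was 0.90 (adjusted p = 0.609, standard error 0.45), or 1.47 without KKAy replicates 3 and 4, with KKAy replicate 5 low. The subunits of the immunoproteasome and Tap1 had log2 changes of -0.44 for Psmb8, -0.33 for Psmb9 and -0.34 for Tap1. Without KKAy replicates 3 and 4 these were -0.05, -0.06 and 0.14, so the change of Tap1 turned.

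**Figure D3:**
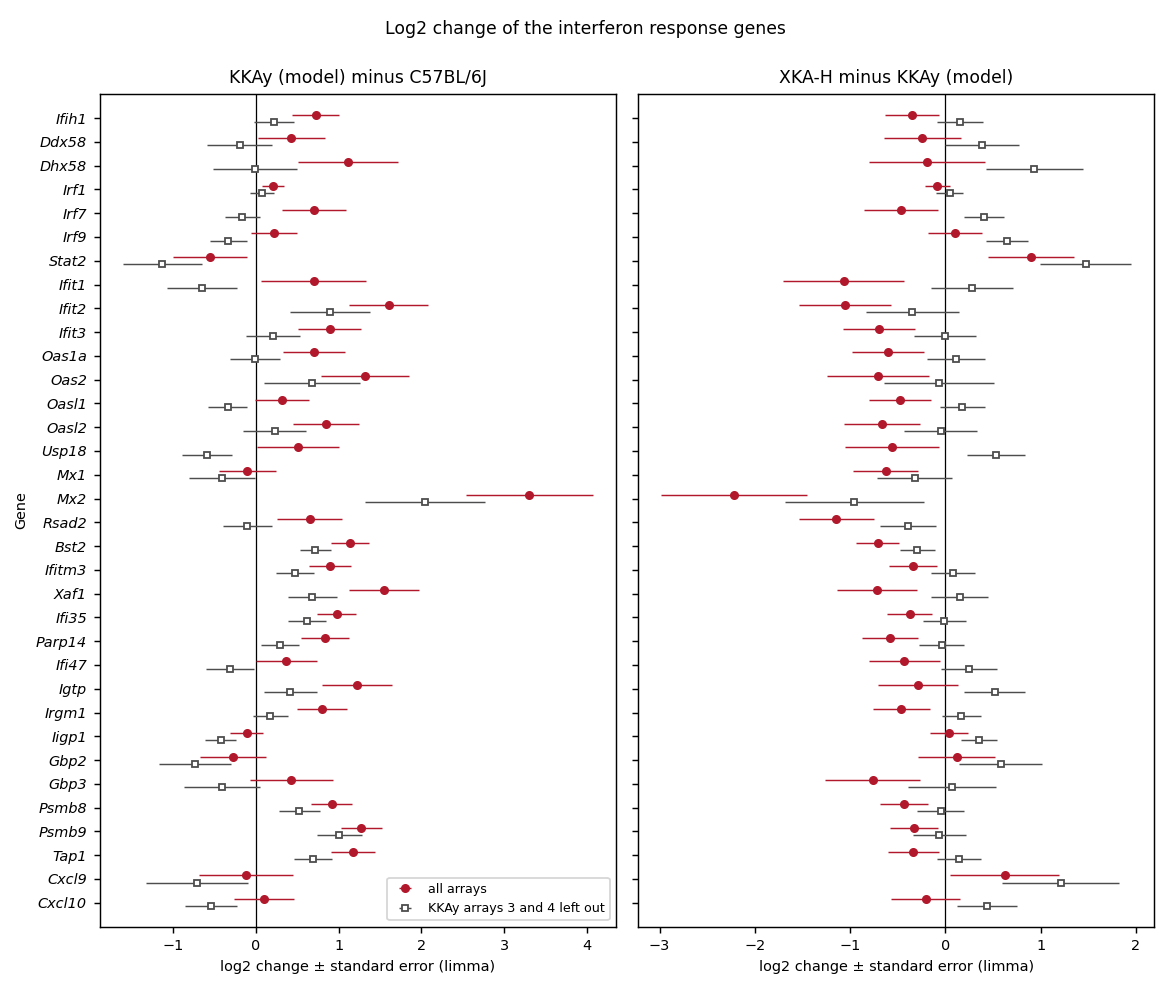
Log2 change (x axis, with standard error from limma) of each interferon response gene (y axis) between KKAy and C57BL/6J liver on the left and between XKA-H and KKAy liver on the right, with all 15 arrays (filled circles) and with KKAy replicates 3 and 4 left out (open squares). The median member change is 0.71 and 0.034 on the left and -0.45 and 0.14 on the right.

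Between XKA-H and C57BL/6J liver 1 of 34 members rose, Psmb9, and 0 fell, where 5.49% of all genes rose and 1.88% fell. This count takes 1 probe set per gene, and the other probe set of Iigp1 changed by -0.83 (adjusted p = 0.00632 from limma over all probe sets). The log2 change of Psmb9 was 0.95 (adjusted p = 0.0233, standard error 0.25), with XKA-H mice at 9520 to 21023 against 4934 to 10537 in C57BL/6J mice. Next in order were Tap1, with 0.84 (adjusted p = 0.0657, standard error 0.27), and Ifi35, with 0.61 (adjusted p = 0.145, standard error 0.24). In no member was every XKA-H mouse above every C57BL/6J mouse, against 5.01% of all genes. The median member change was 0.28 against 0.10 over all genes. Without KKAy replicates 3 and 4 in the fit, which lowers the shared estimate of the spread, Psmb9, Tap1 and Igtp passed, with Igtp at 0.94 (adjusted p = 0.0483, standard error 0.28). In that fit 5.52% of all genes were called higher. Psmb9 did not pass without XKA-H replicate 2 or 3 or C57BL/6J replicate 3 or 4, and Tap1 passed beside it without KKAy replicate 3, KKAy replicate 5 or XKA-H replicate 4.

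The spread between mice of the KKAy group was read from the SD of the log2 signal. The median SD of the log2 signal over the members was 0.29 in C57BL/6J, 0.96 in KKAy and 0.57 in XKA-H mice, against 0.36, 0.39 and 0.40 over all genes. The SD was larger in KKAy than in C57BL/6J mice for 32 of 34 members against 55% of all genes, and larger in KKAy than in XKA-H mice for 29 of 34 against 48%. The 2 members with no larger SD in KKAy than in C57BL/6J mice were Gbp2 and Psmb9. The gap between the lower of KKAy replicates 3 and 4 and the highest of the other 3 was widest for Ifit1 and Usp18, at 2.62 and 2.24 log2 units. Members with and without a promoter match to the response element core were set side by side in these 2 arrays and in XKA-H replicates 2 and 3, with no test. Over the 14 measured members with a match the median deviation was 1.66 in KKAy replicate 3 and 1.54 in replicate 4, and over the 13 with a promoter and no match it was 1.67 and 1.37. In XKA-H replicates 2 and 3 the median deviation was 0.85 and 0.68 with a match and 0.97 and 1.01 without. Tap1 and Psmb9, whose common promoter is printed above, are among the 13, and Ifit1 is among the 14.

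Other genes of the pathway, taken from lists written by hand, were read in the same arrays, beside the 10.5% of all genes called higher between the strains, the 2.36% called lower and the 21.7% for which KKAy replicates 3 and 4 were the 2 highest KKAy arrays. Of 43 other type I interferon-induced genes 6 were higher in KKAy than in C57BL/6J liver and 0 lower, namely Cmpk2, Daxx, Ifitm1, Lgals3bp, Ly6e and Mlkl, and KKAy replicates 3 and 4 were the 2 highest arrays for 36 of the 43 (83.7%). Without these 2 arrays 0 of the 43 passed between the strains. Cmpk2, a mitochondrial nucleotide kinase whose gene neighbours Rsad2, changed by 1.23 (adjusted p = 0.0311, standard error 0.37). Of 14 other genes of MHC class I presentation 3 were higher, Canx, Tap2 and Tapbpl, and the 2 arrays were highest for 12 (85.7%). Of 13 other GTPases and chemokines induced by interferon gamma 2 were higher, Gbp2b and Gbp6, and 1 lower, Gm4951, with the 2 arrays highest for 7 (53.8%). Without the 2 arrays 0 of the 14 and, of the 13, only Gm4951 passed. Gm4951, a relative of Iigp1, was lower in all KKAy mice, at 5236, 4472, 10103, 8912 and 4956 in KKAy replicates 1 to 5 against 63313 to 74877 in C57BL/6J mice, a log2 change of -3.43 (adjusted p = 4.57e-10, standard error 0.20). It was 5159 to 8305 in XKA-H mice.

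Genes upstream of the response were read against the same shares of all genes. Of 10 interferon ligands 0 passed in any comparison, and the 2 arrays were highest for 0 of the 10. Ifnb1 had a mean scaled signal of 868 ± 336 in C57BL/6J, 1126 ± 522 in KKAy and 819.5 ± 315 in XKA-H liver (mean ± SD, n = 5), around or below the array median. Ifng was lower still, at 201 ± 199, 374 ± 157 and 282 ± 163, and signals this dim were not tested against background. Of 9 genes for interferon receptors and their signalling chain 0 passed and the 2 arrays were highest for 6 (66.7%), none of them by more than 1 log2 unit, with log2 changes between KKAy and C57BL/6J liver of 0.16 for Ifnar1 and -0.02 for Ifnar2, the type I receptor chains, 0.19 for Ifngr1, -0.04 for Jak1 and 0.15 for Tyk2. Of 7 negative regulators, Socs1 among them, 0 passed and the 2 arrays were highest for 0. Of 18 genes that sense nucleic acids or induce interferon, Irf2 and Tlr3 were higher in KKAy than in C57BL/6J liver, a share close to the 10.5% of all genes, and the 2 arrays were highest for 6 (33.3%, against 21.7% of all genes). Without these 2 arrays Irf2 passed and Tlr3 did not. Irf2, a repressor at the same DNA element as Irf1, changed by 1.08 (adjusted p = 0.000235, standard error 0.17) in KKAy and by 1.01 (adjusted p = 0.000699, standard error 0.17) in XKA-H relative to C57BL/6J liver, and KKAy replicates 3 and 4 were not its 2 highest KKAy arrays. Irf3, the factor that first induces interferon beta, was lower in XKA-H than in C57BL/6J liver, with a log2 difference of -0.61 (adjusted p = 0.0357, standard error 0.17). In the comparison of XKA-H with KKAy liver 0 genes of these lists passed.

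Markers of the cells in a liver sample were read for the same arrays. The mean log2 deviation from C57BL/6J of 5 neutrophil markers was 0.25, 0.61, 1.23, 1.12 and 0.05 in KKAy replicates 1 to 5 and 1.04, 0.31, 0.85, -0.57 and -0.14 in XKA-H replicates 1 to 5, so in KKAy mice it was highest in the arrays where the members were. In XKA-H mice it was highest in replicate 1, where the members averaged 0.08. Of the 5 only S100a8 was higher in KKAy than in C57BL/6J liver. The part of these cells in the members' signals was not tested. Liver endothelial markers deviated by 0.20, -0.32, 0.42, 0.36 and -0.09 in KKAy replicates 1 to 5, so replicates 3 and 4 were the highest for them too. The part of endothelial cells was not tested either. Kupffer cell and macrophage markers deviated by 0.40, -0.55, 0.05, 0.59 and -0.13 in KKAy replicates 1 to 5, T and NK cell markers by 0.28, 0.06, 0.26, 0.31 and 0.40, and hepatocyte markers by 0.40, 0.18, 0.56, 0.27 and -0.09. Of 10 Kupffer cell and macrophage markers 1 was higher in KKAy liver, Lyz2, and 1 lower, Marco, and Marco was lower in XKA-H liver too. The other markers past the adjusted p between the strains were Apob of 8 for hepatocytes, Clec4g and Stab2 of 7 for endothelial cells and Acta2 and Col3a1 of 8 for stellate cells and fibroblasts, with 0 of 9 for T and NK cells, 0 of 5 for B cells, 0 of 7 for dendritic cells and 0 of 3 for adipocytes. Without KKAy replicates 3 and 4, of all these markers S100a8 and Stab2 passed between the strains, and Apob, Clec4g, Acta2, Col3a1, Lyz2 and Marco did not.

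**Figure D4:**
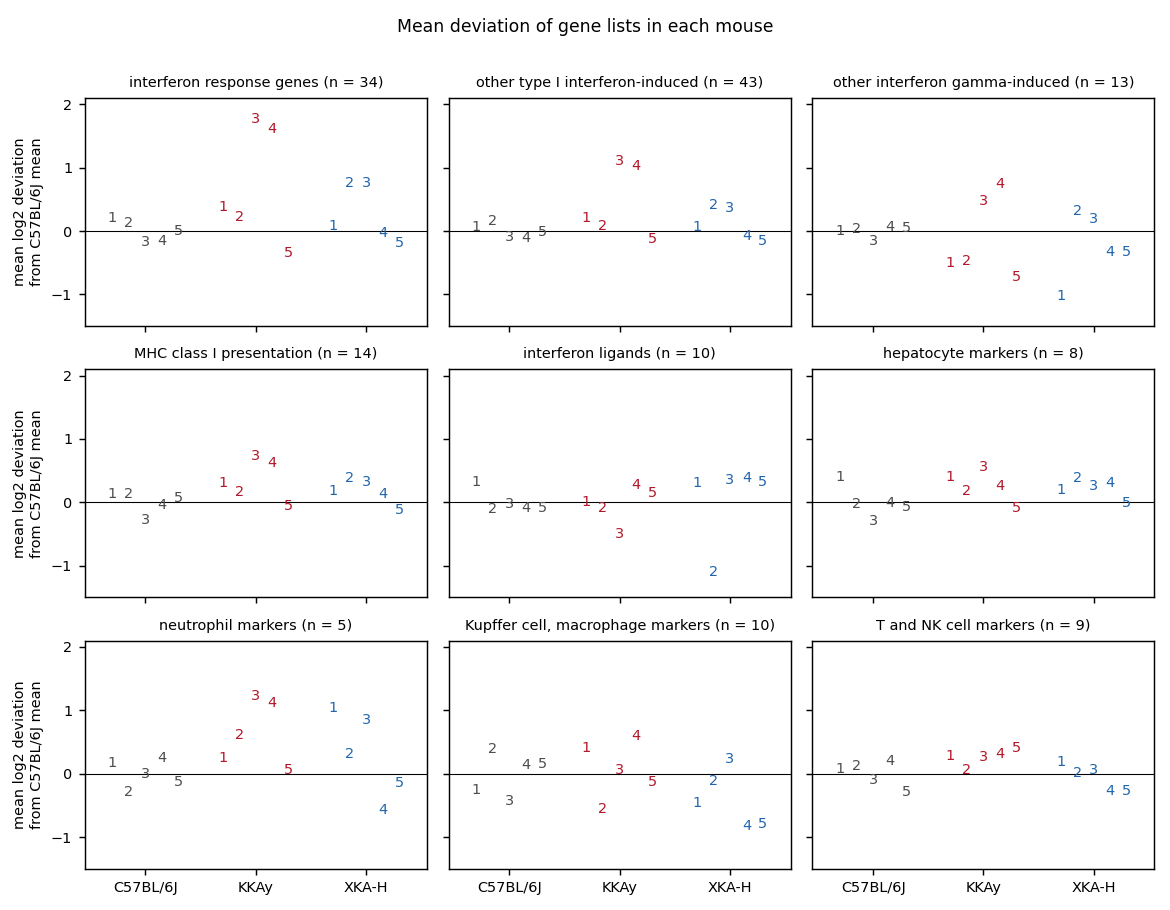
Mean log2 deviation from the C57BL/6J mean (y axis) of the interferon response genes, 4 other gene lists of the pathway and 4 lists of cell type markers in each mouse, with digits giving the replicate number and n the genes measured in each list. KKAy replicates 3 and 4 stand at 1.77 and 1.61 for the members and are the 2 highest KKAy mice for the neutrophil markers, at 1.23 and 1.12.

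Of the members, 12 had several probe sets. In the comparison of KKAy with C57BL/6J liver all probe sets of 6 of them changed above 0, all of 3 below 0, and those of Cxcl9, Parp14 and Tap1 had both signs. The probe set of Tap1 used above had a mean scaled signal of 8230 and those with lower signals had means of 388, 322 and 133, below the array median. All 3 probe sets of Ifi35 had log2 changes above 0 in KKAy liver, 2 of them at an adjusted p under 0.05 over all probe sets.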

How the data were processed

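Livers of 15 mice, 5 per group, were measured on Affymetrix 430 2.0 arrays, 1 array per mouse. The files deposited by the authors hold linear intensities, 1 per probe set and array, and the sources used here do not say how probes were summarised. The methods name a median scaling to 1000 in ArrayTrack, while the deposited medians ran from 127 to 182, so every array was brought to that median. Of 45101 probe sets 34958 carried 1 gene symbol, 34741 of them matched by Entrez identifier. For each of 18193 genes the probe set with the top mean log2 signal was used, control probe sets aside. Groups were compared on log2 scaled signals by limma (3.58.1, R 4.3.3), fitted once to all 15 arrays with a trend of the prior variance on intensity, two-sided, at a Benjamini-Hochberg adjusted p under 0.05 over all genes. The script was tested on simulated data.

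The members and lists were chosen with earlier results of these data known. All members are described, with values in each array for those past the adjusted p, and of the lists the genes past it and core pathway genes are named. Values by array of Ifit1, Usp18, Rsad2, Igtp, Irf7, Ifih1, Ifit3, Oas1a and Cxcl9 are given because of what they showed. Alternatives covered scaling, probe sets, dim genes, an offset of 100, the trend, weights for arrays, a block for the replicate number, the exact permutation test, Dunnett comparisons (mvtnorm 1.3.3), the 2 groups alone and each array left out. The joint removal of KKAy replicates 3 and 4 was added after seeing the data. Other software was the R package data.table in version 1.17.8, matplotlib 3.10.9 and pandas 2.3.3 under Python 3.11.15. The number of arrays limits the precision, and the median standard error of a member's log2 change was 0.38.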

Additional observations from a re-analysis of the deposited data

Results flagged for a closer look

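Of 102 sets of 5 arrays, 34 genes in 3 groups, 3 (2.94%) held an array far from the other 4 by Dixon's criterion, where chance flags about 1 in 20. Dhx58 was 341 in C57BL/6J replicate 4, with the next lowest C57BL/6J mouse at 1571. Stat2 was 217 in KKAy replicate 5, with the next lowest KKAy mouse at 1121. Ifit1 was 4467 in C57BL/6J replicate 1, with the next highest C57BL/6J mouse at 3319. KKAy replicates 3 and 4 were not marked by this criterion for any member, since it looks for a single distant array.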

How the results depend on the processing

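Between KKAy and C57BL/6J liver the 9 members called became 5 without an intensity trend, 2 without KKAy replicates 3 and 4, 2 with adjusted Dunnett comparisons and 0 with the adjusted exact permutation test, and 5 to 14 with 1 array left out. For the 2336 genes called of all genes these settings gave 1078 without the 2 arrays, 1359 and 3547 with adjusted and unadjusted Dunnett comparisons and 0 with the exact test. With 1 array left out they gave 1648 to 2773. The smallest p of that test, 0.00794, could not pass the adjustment over all genes here, so its 0 says nothing of stability. The median member change was 0.034 without the 2 arrays. Between XKA-H and KKAy liver 1 member passed unadjusted Dunnett comparisons, Bst2, and the median member change was 0.14 without the 2 arrays. The 32 genes called of all genes became 63 in deposited intensities, 113 after quantile normalization, 6 with the mean of the probe sets, 4 without a trend, 57 with array weights, 19 with the 2 groups alone, 12 without the 2 arrays, 0 with the exact test, 0 and 944 with adjusted and unadjusted Dunnett comparisons, and 11 to 61 with 1 array left out. Between XKA-H and C57BL/6J liver the 1 member called became 2 after quantile normalization, 2 among genes above the array median, 0 without a trend, 3 with array weights, 2 with the 2 groups alone, 3 without the 2 arrays, 0 with the exact test and 0 to 2 with 1 array left out. The 1341 genes called there became 828 with the mean of the probe sets, 881 without a trend and 0 with the exact test. Dunnett comparisons were made against the KKAy group and give no value there. The cause of these shifts was not tested. Of all genes between KKAy and C57BL/6J liver 1906 were called higher and 430 lower, against 1118 and 1017 in deposited intensities and 1587 and 1092 after quantile normalization, and the median of all genes was 0.15, -0.04 and 0.04. The median of the members was 0.71, 0.52 and 0.55 in the same settings, with 9, 8 and 9 members called, all higher. With the mean of its probe sets Tap1 changed by 0.64 (adjusted p = 0.446 from limma) and Psmb8 by 0.80 (adjusted p = 0.140). No value that passed reversed its direction. Arrays with the same replicate number did not deviate together, with correlations of -0.04 to 0.09 over 15 pairs and 0 over 0.1. Low correlations over all genes cannot exclude that the numbers pair the mice in some way, and the labels do not say. With the replicate block 10, 0 and 1 members and 2082, 22 and 1170 of all genes were called in the 3 comparisons. Mx1, Mx2, Oas2, Oasl2, Stat2, Dhx58, Ifit2, Gbp2, Cxcl9 and Cxcl10 had at least 1 array below the array median, and signals were not tested against background.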
